A study of Homo sapiens with 8 samples.

Results

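MIR22HG is the host gene of the microRNA miR-22, and 25 of the 24199 small open reading frames (smORFs) counted by ribosome profiling (Ribo-Seq) in Caco-2 cells lie in it. They were selected as every smORF whose list of overlapping genes contained MIR22HG, and the gene itself was selected on the counts of its smORFs with micelles without lipid set against the differentiated control, so that contrast is described here and not tested. The list of overlapping genes also named MIR22, the miR-22 hairpin gene, for 11 of the 25 smORFs and did not for the other 14. Caco-2 is an established human colorectal line whose cells take on enterocyte features when left to differentiate. There were 8 libraries in 4 groups of 2: undifferentiated cells without further treatment, differentiated cells without further treatment (control), differentiated cells given micelles made of taurocholate (micelles without lipid), and differentiated cells given micelles with BSA, oleic acid and cholesterol (lipid micelles). All 8 came from the same line, and the labels do not say whether the 2 replicates of a group were separate cultures, so the p-values measure the spread between these libraries, which may be technical.

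A microRNA is cut from a hairpin in a longer primary transcript, first in the nucleus by DROSHA with DGCR8 and then in the cytoplasm by DICER1, and one of the 2 arms is then loaded into an Argonaute protein. Pairing between an mRNA and bases 2 to 8 of the loaded arm, the seed, lowers the stability or translation of that mRNA. The miR-22 hairpin sits inside an exon of its host, a spliced RNA that is not annotated as coding, whereas many other microRNAs sit in introns. Ribo-Seq sequences the RNA pieces left after RNase digestion of purified monosomes, and a piece of a structured small RNA of similar length can enter such a library without a ribosome. The counts therefore record reads at a place and are not by themselves a measure of translation.

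In hg38, MIR22HG is annotated on the minus strand at chr17:1711447-1717174 in GENCODE 44, and the hairpin at chr17:1713903-1713987 lies inside an exon in 30 of its 32 annotated transcripts. The mature arms are printed here with their seeds in capitals, because the smORFs of this gene with the most counts contain them (sequences from RefSeq, GRCh38.p14), followed by the hairpin with both arms in capitals (hg38).
hsa-miR-22-5p, chr17:1713952-1713973: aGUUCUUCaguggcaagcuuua
hsa-miR-22-3p, chr17:1713914-1713935: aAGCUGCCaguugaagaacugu
MIR22 hairpin, chr17:1713903-1713987: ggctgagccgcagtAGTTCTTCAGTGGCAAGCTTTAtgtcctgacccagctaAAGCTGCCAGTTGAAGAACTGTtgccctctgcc

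IEC_16521 (23 amino acids, 69 nt, chr17:1713903-1713971) lies wholly within the hairpin, and IEC_15523 and IEC_22851 contain the same 69 nt. It holds 20 of the 22 bases of miR-22-5p and all 22 of miR-22-3p, in capitals here.
IEC_16521: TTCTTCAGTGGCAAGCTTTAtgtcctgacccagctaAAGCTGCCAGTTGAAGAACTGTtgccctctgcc
IEC_15522 (40 amino acids, 120 nt, chr17:1713815-1713934) starts inside the other arm. It holds 21 bases of miR-22-3p, in capitals, and none of miR-22-5p.
IEC_15522: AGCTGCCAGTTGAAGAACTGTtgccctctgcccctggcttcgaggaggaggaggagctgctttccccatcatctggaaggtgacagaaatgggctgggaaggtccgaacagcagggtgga
IEC_22158 (86 amino acids, 258 nt, chr17:1713589-1713846) starts downstream of the hairpin with an ATG, in capitals, and is shown because it carried the most counts of the smORFs without hairpin sequence.
IEC_22158: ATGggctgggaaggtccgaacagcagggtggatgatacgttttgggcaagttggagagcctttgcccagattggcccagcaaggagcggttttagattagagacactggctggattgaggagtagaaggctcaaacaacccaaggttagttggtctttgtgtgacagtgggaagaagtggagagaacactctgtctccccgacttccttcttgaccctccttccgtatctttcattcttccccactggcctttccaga

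All 25 smORFs matched hg38 base for base and lay wholly in annotated MIR22HG exons. They are not 25 independent readings of the gene: they used 12 distinct start positions, fell into 2 clusters of overlapping frames, and a read in a shared stretch was counted for each smORF that contains it. They fall into groups by position. The first holds 5 smORFs with at least 15 nt of a mature arm, namely IEC_16521, IEC_15523 and IEC_22851 over both arms and IEC_15522 and IEC_22108 over miR-22-3p. The second holds 12 smORFs wholly downstream of the hairpin, and 8 of these begin at the same ATG at position 1713846, share their first 144 nt and differ in their splicing after that. The third holds the remaining 8, which have 8 nt of miR-22-3p (IEC_22109 and IEC_22855), only the base of the hairpin (IEC_15524, IEC_22182, IEC_15525 and IEC_22110) or upstream exons alone (IEC_22150 and IEC_15526). Only the 8 smORFs at the shared ATG began with that codon, whereas 43.4% of all smORFs in the table did.

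**Figure D1:**
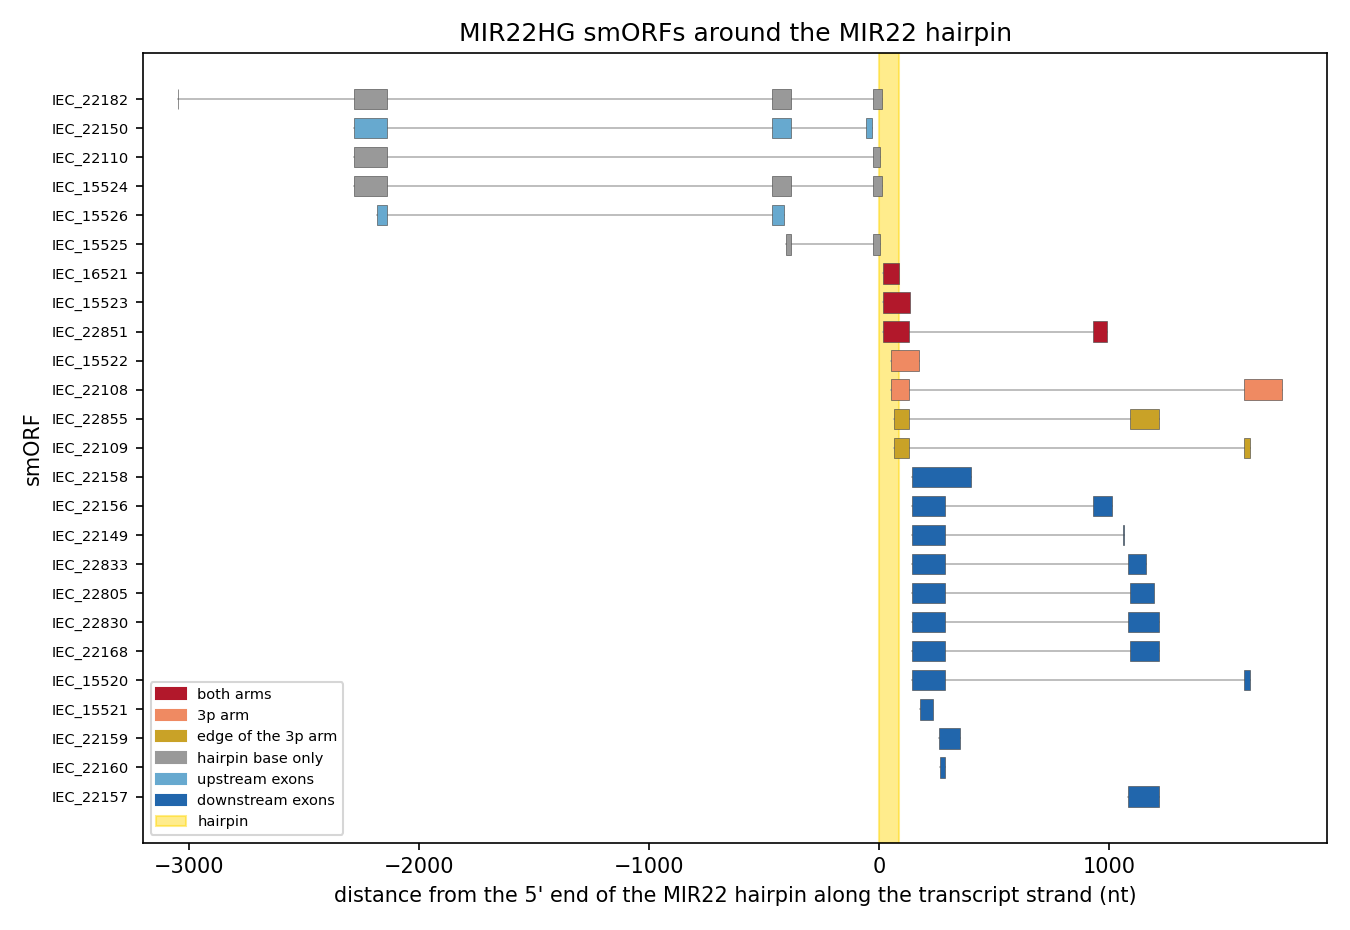
Exons of the 25 MIR22HG smORFs, one row each, against the distance in nt from the 5′ end of the MIR22 hairpin along the transcript strand. Boxes are exons, thin lines introns, colours the overlap with the hairpin, and the yellow band the hairpin; the 8 smORFs that share an ATG start in one column to the right of the band.

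The median RibORF and PhyloCSF scores of the 25 smORFs lay near those of all smORFs. The RibORF score combines read coverage with codon periodicity, and the highest score deposited for each smORF was used. Its median was 0.909 for the 25 smORFs and 0.876 for all smORFs, all of which had been kept on that score. The study also called smORFs in other cell types, so the highest score need not come from Caco-2 cells. The median PhyloCSF score, a measure of protein-like conservation, was -7.13 for the 25 smORFs and -6.76 for all. The 5 smORFs with at least 15 nt of a mature arm lay above the latter. They had -0.93 (IEC_15523), -1.30 (IEC_15522), -1.58 (IEC_16521), -3.29 (IEC_22851) and -6.36 (IEC_22108). The PhyloCSF score was above 0 for 0 of the 25 and for 1.75% of all smORFs. The median length was 57 amino acids against 31.

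The MIR22HG smORFs with the most counts were those that contain hairpin sequence. IEC_16521 received 1015 and 1518 counts in the undifferentiated libraries, 115 and 563 in the control, 395 and 1994 with micelles without lipid, and 291 and 867 with lipid micelles (replicates 1 and 2). It ranked between 12 and 627 among the 24199 smORFs by counts, and it was highest in rank in replicate 2 of the undifferentiated cells. IEC_15523 extends IEC_16521 by 48 nt downstream. The counts of IEC_16521 were between 96.3% and 99.5% of those of IEC_15523.

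The smORF over miR-22-3p alone had fewer counts. IEC_15522 shares miR-22-3p but not miR-22-5p with IEC_16521 and received 100 and 158 counts in the undifferentiated libraries, 20 and 92 in the control, 118 and 453 with micelles without lipid, and 66 and 242 with lipid micelles. If each read was assigned by 1 position, at least 70.1% to 90.1% of the counts of IEC_16521 in each library fell outside the stretch it shares with IEC_15522. Since the position by which a read was assigned is not known, these counts cannot be placed on one arm or the other. IEC_22109 starts 13 nt further downstream, holds 8 nt of miR-22-3p and continues in a second exon, and it received 8 to 29 counts in each library.

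The downstream exons gave far fewer reads. IEC_22158 received 19 and 24 counts in the undifferentiated libraries, 40 and 39 in the control, 77 and 64 with micelles without lipid, and 42 and 52 with lipid micelles. Its counts were lowest in both undifferentiated libraries and highest in both libraries with micelles without lipid. The upstream exons gave fewer still, with 7 to 17 counts of IEC_22150 in each library.

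On the scale of normalized read counts (CPM, reads scaled to a library of 1e6 with TMM factors), the mean level of IEC_16521 was 2058 ± 745 (SD, n = 2) in undifferentiated cells, 1677 ± 1393 with micelles without lipid, 697 ± 394 with lipid micelles and 462 ± 346 in the control. The library values ran from 1531 to 2585 in undifferentiated cells, from 692 to 2663 with micelles without lipid, from 418 to 975 with lipid micelles and from 217 to 707 in the control. In this order each group overlapped its neighbour, and the clear gap was between the undifferentiated libraries and those of the control and of lipid micelles. Replicate 2 was higher than replicate 1 in all 4 groups. For IEC_15522 the order was different: 406 ± 281 CPM with micelles without lipid, 210 ± 83.6 in undifferentiated cells, 184 ± 125 with lipid micelles and 76.6 ± 55.0 in the control, and again replicate 2 was higher in each group.

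The order of groups was different again for IEC_22158. Its level was 110 ± 35.0 CPM with micelles without lipid, 62.2 ± 18.7 in the control, 59.4 ± 1.3 with lipid micelles and 34.8 ± 8.6 in undifferentiated cells. The libraries with micelles without lipid, at 135 and 85.5 CPM, lay above the 6 others, and the undifferentiated libraries, at 28.7 and 40.9 CPM, lay below them. The control and lipid micelle libraries overlapped. The upstream smORF IEC_22150 stayed between 12.3 and 22.6 CPM in all 8 libraries, with group means from 15.5 to 20.7 CPM, and a count of 3 corresponded to 3.37 to 5.66 CPM.

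**Figure D2:**
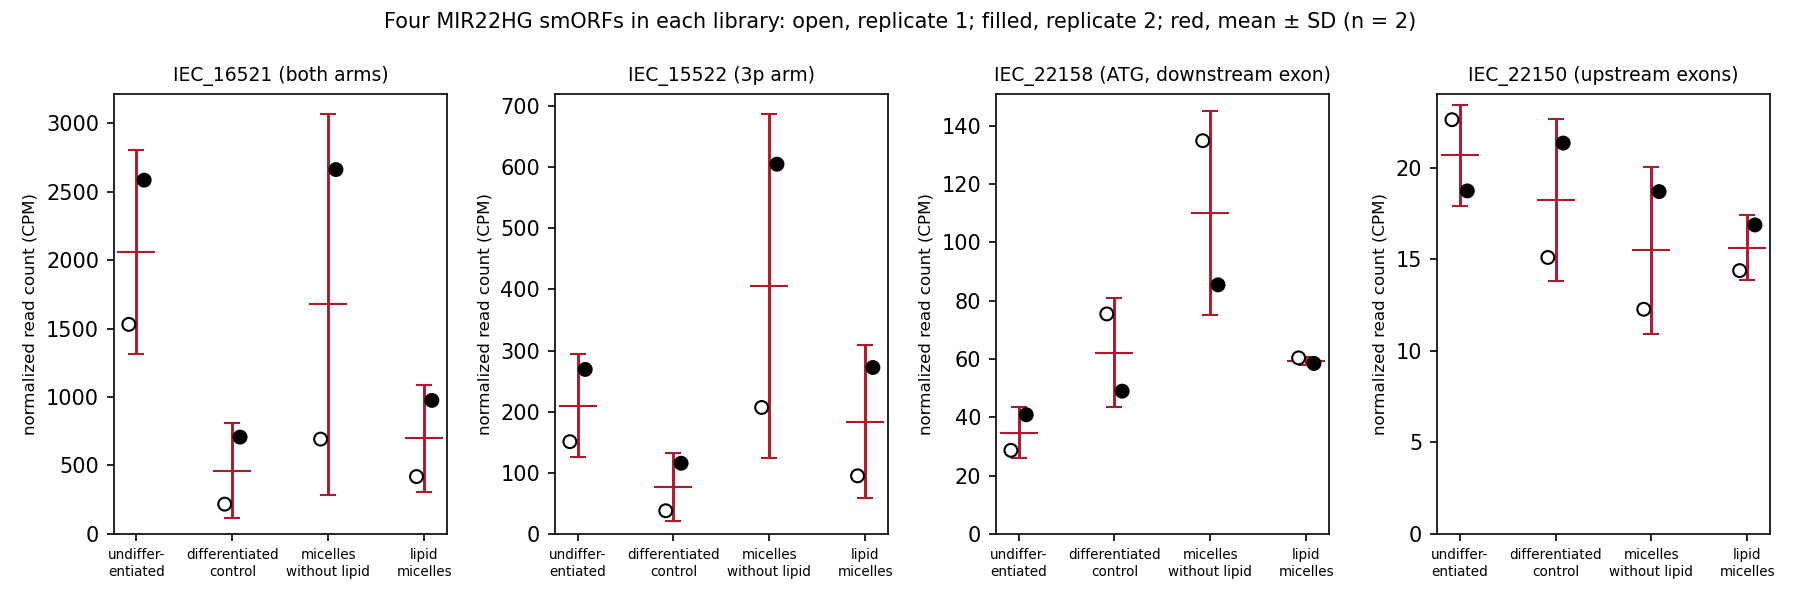
Normalized read count (CPM, linear axis from 0) of 4 MIR22HG smORFs in each library, by group, with open points for replicate 1, filled points for replicate 2 and red bars for the mean ± SD (n = 2). IEC_16521 and IEC_15522 are higher in replicate 2 of each group, whereas IEC_22158 is lowest in the undifferentiated libraries and IEC_22150 stays between 12.3 and 22.6 CPM.

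The comparison of differentiated control with undifferentiated cells asks how these smORFs change as Caco-2 cells differentiate. It shares the control libraries with the contrast that led to the choice of the gene. Low control counts would raise that contrast and lower this one, so the p-values of this comparison are not independent of the choice. Of the 22 smORFs with enough reads to test, 4 were lower in the control and 0 were higher (edgeR quasi-likelihood test; a call needed a Benjamini-Hochberg adjusted p under 0.05 with a log2 change of 1 or more in size). The 3 left out for low counts were IEC_15525, IEC_22110 and IEC_15526, with no more than 16.6 CPM in any library. Of all 15182 smORFs tested, 15.6% were called lower and 17.7% higher. The 4 were all hairpin smORFs and share reads. IEC_16521 fell by 2.15 on the log2 scale (SE 0.55, edgeR adjusted p = 0.00582), and IEC_15523 and IEC_22851, which contain the same hairpin stretch, fell by 2.12 each. IEC_15522 fell by 1.41 (SE 0.54, edgeR adjusted p = 0.0478), and IEC_22108, at -1.35 (SE 0.55, edgeR adjusted p = 0.0623), did not pass the threshold. The 2 control libraries of IEC_16521 lay below both undifferentiated libraries.

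These calls depended on single libraries. Without undifferentiated replicate 2 or without control replicate 1, 0 smORFs of the gene were called, and the adjusted p of IEC_16521 became 0.0588 and 0.0538 by edgeR. The DESeq2 Wald test also called 0, with an adjusted p of 0.0778 for IEC_16521. The smallest edgeR adjusted p of IEC_16521, 4.7e-14, came only from the fit without a low-count filter. Its log2 fold change there was -2.13, close to the main value, so the low p reflects how the spread was estimated. The next smallest, 1.7e-06 by edgeR, came with the replicate block. With at least 10 counts in every library the edgeR adjusted p was 0.0212.

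The smORFs downstream of the hairpin gave mostly positive values in the same comparison. Of the 12, 11 had a positive log2 fold change and 1 a negative one, with a median of 0.71 and a range from -0.04 to 1.02, and 0 were called. IEC_22158 stood at 0.81 (SE 0.36, edgeR adjusted p = 0.0898), and the 8 smORFs at the shared ATG ranged from 0.45 to 0.81. Because those 8 share 144 nt, they are close to 1 measurement. The smORFs at the hairpin base and in the upstream exons that were tested had log2 fold changes from -0.16 to -0.07, each smaller than its SE. The median over all smORFs tested was 0.01.

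Lipid micelles against undifferentiated cells compares group means that use neither the control libraries nor those with micelles without lipid, although the count filter and the spread came from all 8 libraries. Of the 22 smORFs tested, 3 were called lower and 0 higher, against 16.3% and 17.4% of all smORFs tested. The 3 were those over both arms: IEC_16521 fell by 1.57 on the log2 scale (SE 0.54, edgeR adjusted p = 0.029), and both of its lipid micelle libraries lay below both undifferentiated libraries. IEC_15522 was not called, at a log2 value of -0.19 (SE 0.50, edgeR adjusted p = 0.794). IEC_22158 stood at 0.77 on the same scale (SE 0.36, edgeR adjusted p = 0.102). With these 2 groups fitted alone, 3 smORFs of the gene were again called lower, with IEC_16521 at -1.50 (edgeR adjusted p = 0.00182). Without undifferentiated replicate 2, without lipid micelle replicate 1, with a filter of 10 counts in every library, or by the DESeq2 Wald test, 0 smORFs of the gene were called. The adjusted p of IEC_16521 ran from 5.5e-08 to 0.227 over the 14 alternatives.

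**Figure D3:**
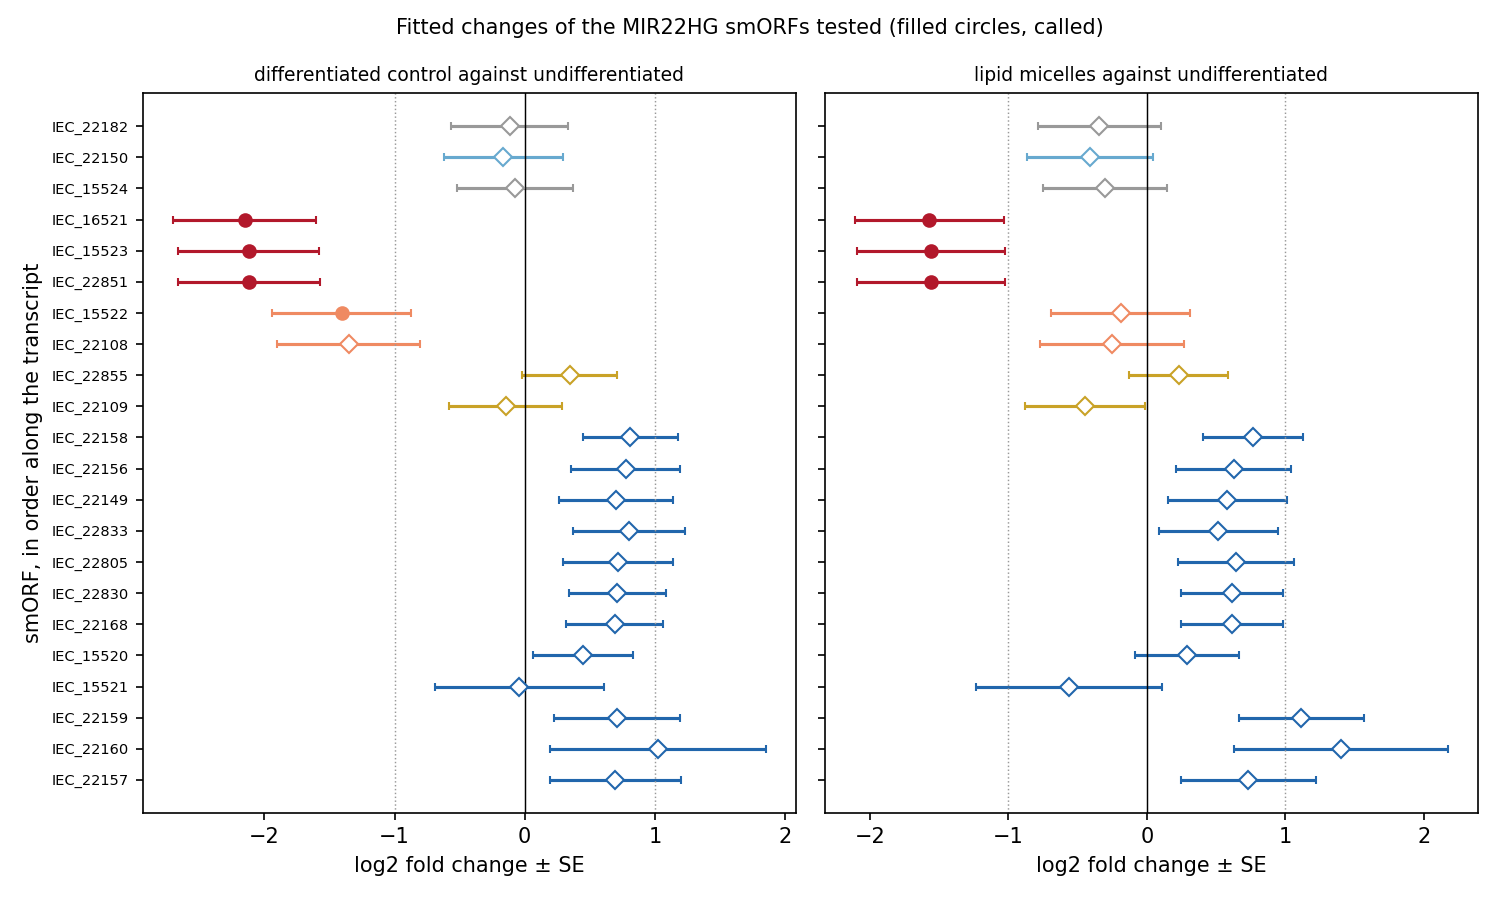
Fitted log2 fold change ± SE of the 22 MIR22HG smORFs tested, in order along the transcript, for the control (left) and lipid micelles (right) against undifferentiated cells. Filled circles passed the call rule and open diamonds did not; dotted lines mark a log2 fold change of -1 and 1. The smORFs over both arms lie to the left of -1 in both panels and 11 of the 12 downstream smORFs lie to the right of 0.

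Micelles without lipid against the control is the contrast on which the gene was chosen, so its values are given without a test. The log2 fold change was 1.85 (SE 0.55) for IEC_16521, 2.36 (SE 0.53) for IEC_15522, 2.23 (SE 0.55) for IEC_22108 and 0.83 (SE 0.32) for IEC_22158. All 12 downstream smORFs had positive values, from 0.16 to 1.22, and the tested smORFs of the hairpin base and the upstream exons had values from -0.27 to -0.23.

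Equally numbered replicates of the 3 differentiated groups deviated together only weakly, with correlations from 0.101 to 0.182, and the labels state no pairing. The 6 differentiated libraries were also fitted with a term for the replicate number (the block). In that fit the log2 fold change of IEC_16521 was 1.79 (SE 0.21) and that of IEC_15522 was 2.39 (SE 0.24), again given without a test. These SEs are smaller than those without the block and rest on treating equal replicate numbers as pairs. Within replicate 1, IEC_16521 had 217 CPM in the control and 692 CPM with micelles without lipid, and within replicate 2 it had 707 and 2663 CPM.

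Lipid micelles against the control shares the control libraries with the previous contrast. IEC_16521 had a log2 fold change of 0.58 (SE 0.53) and IEC_15522 one of 1.22 (SE 0.53), while IEC_22158 had one of -0.04 (SE 0.33). The values of the 12 downstream smORFs ran from -0.52 to 0.41, with 3 above 0. With the block, IEC_16521 had 0.69 (SE 0.21).

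Lipid micelles against micelles without lipid shares the latter libraries with the contrast on which the gene was chosen, so it was not tested either. The log2 fold change was -1.27 (SE 0.53) for IEC_16521, -1.14 (SE 0.49) for IEC_15522 and -0.88 (SE 0.32) for IEC_22158. All 12 downstream smORFs had negative values, from -1.37 to -0.12. With the block, IEC_16521 had -1.09 (SE 0.20).

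The ratio between the hairpin and the downstream exon of the same gene differed between groups and between replicates. IEC_16521 had 53.4 and 63.2 counts for each count of IEC_22158 in the undifferentiated libraries, 2.88 and 14.4 in the control, 5.13 and 31.2 with micelles without lipid, and 6.93 and 16.7 with lipid micelles. Per nucleotide of smORF, the density over IEC_16521 was 200 and 236 times that over IEC_22158 in the undifferentiated libraries and 10.8 to 116 times in the 6 differentiated ones. All 6 differentiated libraries lay below both undifferentiated libraries, and among them replicate 2 was higher than replicate 1 in each group.

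The ratio of IEC_15522 to IEC_16521 was closer between replicates. Counts of IEC_15522 were 0.0985 and 0.104 of those of IEC_16521 in the undifferentiated libraries, 0.174 and 0.163 in the control, 0.299 and 0.227 with micelles without lipid, and 0.227 and 0.279 with lipid micelles. The undifferentiated libraries were lowest, the control libraries came next, and the 4 libraries given either kind of micelle were higher than both, with the micelle groups overlapping each other. With 2 libraries a group, an exact permutation test cannot give a two-sided p below 0.333, so these ratios were not tested.

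**Figure D4:**
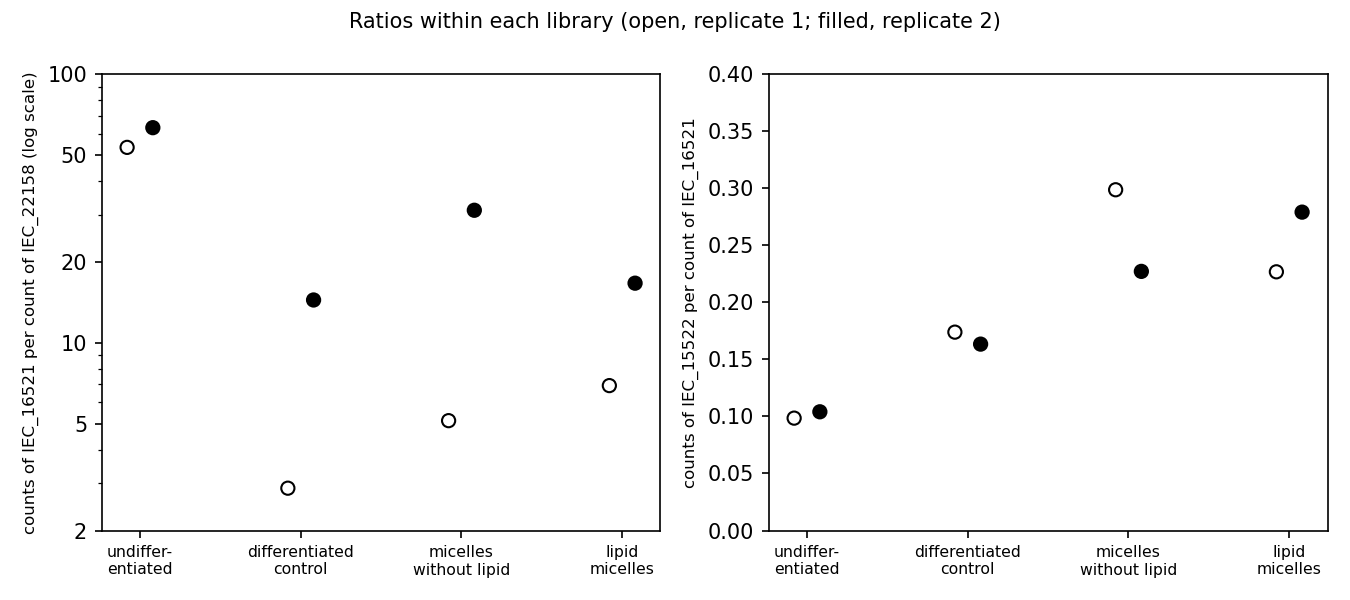
Ratios of counts within each library, by group, with open points for replicate 1 and filled points for replicate 2. Left, IEC_16521 over IEC_22158 on a log axis, with the undifferentiated libraries at 53.4 and 63.2 above all others; right, IEC_15522 over IEC_16521 on a linear axis from 0, lowest in the undifferentiated libraries and highest in the 4 micelle libraries.

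The summed counts of smORFs over other small RNAs also varied between the libraries. The 162 other smORFs with at least 15 nt of a small RNA exon, such as small nuclear and small nucleolar RNAs, summed to 59616 and 79685 CPM in the undifferentiated libraries, 43473 and 53749 in the control, 60979 and 77296 with micelles without lipid, and 46575 and 52788 with lipid micelles. Replicate 2 was higher in all 4 groups. The undifferentiated libraries overlapped those with micelles without lipid, and the control libraries overlapped those of lipid micelles. No order of the groups within these pairs is read from the sum, and reads of overlapping smORFs enter it more than once. IEC_03500, over the variant U1 small nuclear RNA RNVU1-22, alone held 51479 of these counts over the 8 libraries. It had 7489 and 9662 in undifferentiated cells and 4826 and 7035 with micelles without lipid, so it weighs on how these groups compare. The set also holds microRNA hairpins and annotated RNA segments inside long non-coding RNAs such as DLEU1 and TUG1. Overlapping smORFs also enter the following tallies more than once. Of the 134 tested one by one, 61 had a positive log2 fold change in the control against undifferentiated cells (median -0.16), 79 with micelles without lipid against the control (median 0.10) and 46 with lipid micelles against the control (median -0.22). The share of the miR-22 values that goes with this was not tested.

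Single smORFs over other small RNAs can be named that, like IEC_16521, were low in the control, though they differed from it in the order of groups. IEC_17534, which overlaps SNORA19 in EIF3A, received 746 and 1272 counts in the undifferentiated libraries, 37 and 610 in the control, 985 and 4999 with micelles without lipid, and 216 and 1204 with lipid micelles. IEC_17557, which overlaps SNORA12 in CWF19L1, received 587 and 474, 52 and 456, 825 and 2798, and 270 and 1991 in the same order. Their log2 fold changes with micelles without lipid against the control were 3.31 and 2.93, beside 1.85 for IEC_16521. Those of the control against undifferentiated cells were -1.97 and -1.33, beside -2.15, so both stood higher with micelles without lipid than in undifferentiated cells, unlike IEC_16521. SNORA19 and SNORA12 belong to the H/ACA class of small nucleolar RNAs, which guide pseudouridylation, and both smORFs were named after their values were seen.

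For smORFs that overlap other microRNA arms the replicates lay close together in the sum. Such a frame can be longer than the arm, and its reads outside the arm count as well. IEC_00790, at chr17:29390429-29390689, holds 21 nt of its arm. The sum is therefore not confined to hairpins, as IEC_16521 is. The 31 smORFs outside MIR22HG with at least 15 nt of a mature arm summed to 1350 and 1487 CPM in undifferentiated cells, 843 and 821 in the control, 911 and 925 with micelles without lipid, and 923 and 860 with lipid micelles. All 6 differentiated libraries lay below the undifferentiated ones, and 16 of the 20 tested had a negative log2 fold change in the control, with a median of -0.67. The most counted was IEC_16821, over miR-1307-3p in ATP5MK, with 81 to 282 counts in each library and log2 fold changes of -0.90 in the control against undifferentiated cells and -0.03 with micelles without lipid against the control. IEC_18131, over miR-1307-3p as well, received 38 and 48 counts in undifferentiated cells, 3 and 11 in the control, 9 and 27 with micelles without lipid, and 8 and 12 with lipid micelles. Its log2 fold changes were -2.73 and 1.35 in the same comparisons, and those of the overlapping IEC_18132 were -2.71 and 1.22; both were named after their values were seen. Of the 20 tested, 13 had a positive value with micelles without lipid against the control, with a median of 0.33.

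**Figure D5:**
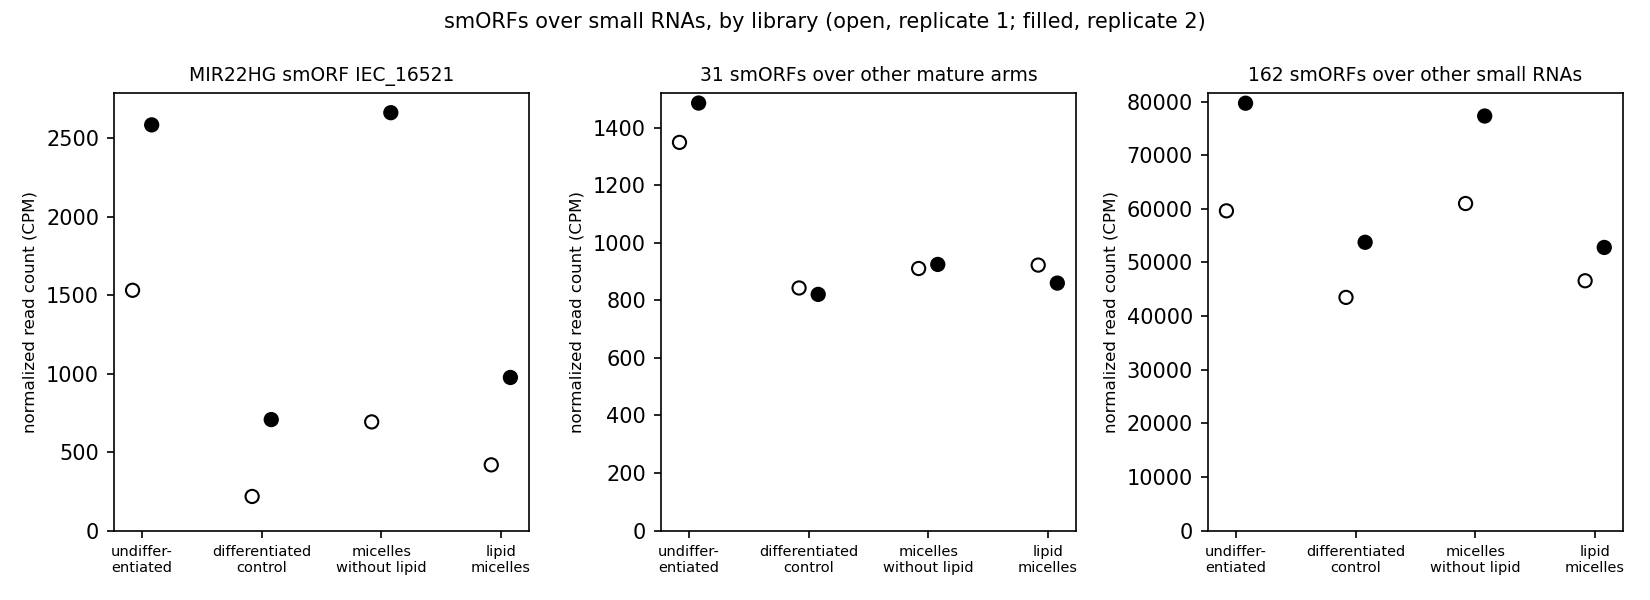
Normalized read count (CPM, linear axes from 0) by library of IEC_16521 (left), of the 31 smORFs over other mature microRNA arms summed (middle) and of the 162 smORFs over other small RNA exons summed (right), with open points for replicate 1 and filled points for replicate 2. Replicate 2 is higher in every group in the left and right panels.

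The list of other microRNA host genes held 103 smORFs in 20 genes, of which 29 passed the filter on low counts. Of these, 22 were higher in the control than in undifferentiated cells and 1 lower by edgeR, all 23 in 5 genes. Over all smORFs tested, 17.7% were higher and 15.6% lower. A smORF with reads in differentiated cells alone passes the filter, so the count in the list is a description. MIR210HG, host of the hypoxia-responsive miR-210, gave 1 and 3 counts of IEC_20318 in undifferentiated cells and 97 and 116 in the control (log2 fold change 5.59, SE 0.47). MIR1915HG gave 14 and 16 counts of IEC_23535 in undifferentiated cells and 113 and 214 in the control (log2 fold change 3.31, SE 0.30). MIR194-2HG, whose microRNAs miR-194 and miR-192 mark intestinal epithelium, had a log2 fold change of -0.01 (SE 0.43) for IEC_24126. MIR4458HG had one of 1.51 (SE 0.47) for IEC_07890. The median over the 29 was -0.04 for micelles without lipid against the control.

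Within 250 kb of MIR22HG, 13 smORFs lay in other genes or in none named, and 9 were tested. In the control against undifferentiated cells 0 of the 9 were called, against 33.3% of all smORFs tested. The median log2 fold change of the 9 was -0.02. A value printed for a named gene, here and below, is that of 1 smORF in it. The study kept smORFs outside known coding regions, so these values are not the expression of the annotated protein. The largest fall among the 4 with the most counts was in PRPF8, a core splicing factor, at -0.86 (SE 0.32, edgeR adjusted p = 0.0466), short of the required fold. PITPNA-AS1, SLC43A2 and SERPINF2 had log2 fold changes of -0.22, 0.20 and -0.39. The median of the 9 against the control was 0.20 for micelles without lipid and 0.22 for lipid micelles.

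Among the reported targets of miR-22, CCNA2, a cyclin of S phase and mitosis, went from 190 and 177 counts of IEC_14056 in undifferentiated cells to 11 and 14 in the control, and fell by 3.95 on the log2 scale (SE 0.32, edgeR adjusted p = 1.2e-07). With micelles without lipid against the control it had a log2 fold change of 0.27 (SE 0.39). MAX, the partner of MYC, had a log2 fold change of 0.07 (SE 0.51) in the control against undifferentiated cells, and PPARA was not tested at 2 to 15 counts in each library.

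The microRNA processing genes gave 9 smORFs in 5 of 12 genes. Of the 5 tested, 0 were higher and 2, both of DROSHA, were lower in the control than in undifferentiated cells. Over all smORFs tested, 17.7% were higher and 15.6% lower. DROSHA, the nuclear enzyme that releases the hairpin, had 40 and 46 counts of IEC_15924 in undifferentiated cells and 4 and 24 in the control, and fell by 1.77 (SE 0.48, edgeR adjusted p = 0.00865). DGCR8 (log2 fold change 0.08, SE 0.50), DICER1 (-0.78, SE 0.76) and SRRT (-1.08, SE 0.82) did not pass the test.

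Taurocholate is a bile acid conjugate, and bile acids act on the nuclear receptor FXR, so bile acid genes were read beside MIR22HG. Of 12 listed genes 5 had smORFs, and 8 of the 10 smORFs were tested. With micelles without lipid against the control, 8 of the 8 had positive values, with a median of 0.39 beside 0.01 for all smORFs. Their single values were near their SEs. ABCC2, an export pump of the canalicular and apical membrane, had 0.14 (SE 0.23). SLC51B, a subunit of the basolateral bile acid exporter, had 0.44 (SE 0.42), ABCC3 had 0.56 (SE 0.46), and OSGIN1 had 0.59 (SE 0.47). Some of the 8 smORFs share a gene, so they are not 8 independent readings. Lipid micelles against the control gave 5 positive values of the 8, with a median of 0.12. A bile acid response was not tested. In the control against undifferentiated cells 0 of the 8 were called, against 33.3% of all smORFs tested. The 8 had 7 positive values there and a median of 0.80.

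Early response and stress genes gave 34 smORFs in 12 of 26 genes, with 30 tested. In the control against undifferentiated cells 14 were higher and 4 lower, beside 17.7% and 15.6% of all smORFs tested, with a median of 1.03, and the 18 lay in 4 genes. IEC_16917 of JUN rose by 1.93 (SE 0.35, edgeR adjusted p = 0.000409). IEC_07126 of DDIT4, an inhibitor of mTORC1, rose by 1.20 (SE 0.32, edgeR adjusted p = 0.00819). TRIB3 had 0.86 (SE 0.28) and PPP1R15A -0.25 (SE 0.28). With micelles without lipid against the control, the 30 had a median of 0.13, with 0.46 (SE 0.26) for TRIB3 and 0.13 (SE 0.30) for JUN.

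The 5 smORFs most like MIR22HG over the 8 libraries were found by the correlation of log2 CPM with the summed level of 1 smORF per overlap cluster, which is dominated by IEC_15523, among 2707 smORFs of other genes. They lay in RAD23B (r = 0.96), KHDC4 with SCARNA4 (r = 0.94), GSK3B (r = 0.93), PRKD2 (r = 0.91) and UBN1 (r = 0.91). The points share the 8 libraries and their depth. The smORF of KHDC4 overlaps the small Cajal body RNA SCARNA4 by 27 nt and had 35 and 85 counts in the control and 88 and 637 with micelles without lipid. For IEC_22158 in place of the sum, CCNB1IP1 (r = 0.94), IL32 (r = 0.92), MGAT1 (r = 0.92) and SNAI3-AS1 (r = 0.92) were among the smORFs most like it, and these are in none of the genes just named.

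The libraries held 506382 to 884711 counts each. Of the intestinal epithelium list 17 smORFs were tested, with 8 higher and 0 lower in the control than in undifferentiated cells. Of the enterocyte list 5 were tested, with 4 higher and 1, of APOA1, lower. Over all smORFs tested, 17.7% were higher and 15.6% lower. APOA4, an apolipoprotein of chylomicrons, went from 4 and 3 counts of IEC_16317 to 509 and 898. The 14 smORFs of the fibroblast list summed to 95.0 and 52.8 CPM in undifferentiated libraries and 0 to 4.5 CPM in the others, with IEC_00652 of PDGFRA at 20 and 16 counts and then at 0, and the 14 of the immune list summed to 0 to 11.3 CPM, with those of PTPRC and MS4A1 at 0 in all libraries. The part of these cell type markers in the MIR22HG values was not tested. Less RNA per cell, fewer cells with the RNA and fewer ribosomes on it cannot be told apart in these bulk libraries.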

How the data were processed

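Ribo-Seq was measured in 8 libraries of Caco-2 cells. Per the labels and the study's methods, the authors aligned reads to hg38 (GRCh38.p13) with STAR 2.7.11a, assembled transcripts with StringTie, kept smORFs by RibORF score and deposited raw read counts per smORF from HOMER. Strand, multi-mapping and read-position options are not given in the sources used here. The deposited RibORF and PhyloCSF scores were used as given, with exon positions and lengths from the deposited coordinates. The members and all gene lists were chosen with earlier results of these data known.

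Counts were fitted with edgeR 4.0.16 (R 4.3.3): filterByExpr, TMM scaling, group means over all 8 libraries, two-sided quasi-likelihood F-tests and Benjamini-Hochberg adjustment over 15182 smORFs. The study states no test for these counts, so its RNA-Seq thresholds were taken, calling a smORF at an adjusted p under 0.05 with a log2 change of 1 or more in size. SE was the absolute log2 fold change divided by the square root of F. CPM used total counts times the TMM factor, and 1 was added before log2 for likeness. DESeq2 1.42.0 was an alternative. The fit was tested on simulated data. Small RNA exons came from GENCODE 44 and mature arms from RefSeq, on the same strand.

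Named smORFs were the 12 tested members with the most counts, up to 4 per list with the most counts, and the 5 host genes most like the summed level, with at least 50 counts on average. Other smORFs named, the ratios between smORFs and the comparison with other small RNAs were chosen after the values were seen. Results that need items withheld for evaluation are not reported here. The pairing of replicate numbers was checked by the correlation of deviations from group means: 0.182 for control and micelles without lipid, 0.113 for control and lipid micelles, 0.101 for the 2 micelle groups, and -0.0575 to 0.0179 with undifferentiated cells. Replicates of a group correlated at 0.873 to 0.912 in log2 CPM, and their counts differed by more than sampling noise (chi-square over its degrees of freedom, 2.59 to 3.39). Depth was 506382 to 884711 counts per library.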

Additional observations from a re-analysis of the deposited data

How the results depend on the processing

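In the control against undifferentiated cells, 4 MIR22HG smORFs were called. The count was 0 by the DESeq2 Wald test and 1 of 2 with 1 smORF per overlap cluster, and between 0 and 5 when a replicate was left out. The count over all smORFs, 5060, became 1562 with at least 10 counts in every library, 3301 by DESeq2 and 2333 with 1 smORF per cluster, and 3603 to 5610 when a replicate was left out. With the replicate block, 5 MIR22HG smORFs and 5133 of all were called. For lipid micelles against undifferentiated cells, alternatives chosen after seeing the data gave 0 of the 3 calls with at least 10 counts in every library, 0 by DESeq2, 1 with 1 smORF per cluster and 0 to 3 when a replicate was left out.

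The log2 ratio of the summed level was -2.07 for control over undifferentiated, 1.78 for micelles without lipid over control and 0.55 for lipid micelles over control. Without the smORFs that name MIR22 they were 0.54, 0.64 and -0.10, so that for control over undifferentiated and that for lipid micelles changed sign. When a replicate was left out they ran from -3.12 to -1.47, from 0.55 to 2.83 and from -0.17 to 1.59, and that for lipid micelles was below 0 without lipid micelle replicate 2 (-0.17) and without control replicate 1 (-0.06). With pairs of equally numbered replicates as a block the 2 micelle ratios were 1.72 and 0.65. For micelles without lipid against the control, which was not tested, the log2 fold change of IEC_16521 was 1.84 in the 6 differentiated libraries without the replicate block and 1.79 with it, fits chosen after seeing the data. Of the alternatives for the 12 smORFs with the most counts in the control against undifferentiated cells, 147 left the call and its direction as they were, 14 lost the call, 8 gained one and 0 reversed. Counts of 7 to 17 for IEC_22150 limit what could be detected in the upstream exons.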
